A study of Mus musculus with 20 samples.

Results

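The 6 genes Gpld1, Baiap2, Pim3, Itih5, Ngef and Apol7a had been seen at higher levels than in young wild-type (WT) epidermis in at least 2 of the young knockout and old WT groups of mouse skin cells, and they are 6 of the 51123 gene identifiers in the count table. They were chosen by their measured levels in young WT against the young knockouts and old WT, and those differences are given below as a description. Levels in the carcinomas were not used in the choice. Differences among libraries of 1 group entered it only indirectly, as the spread against which the group differences were tested.

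The cells were tdTomato-positive cells sorted from dissociated skin, and their RNA was sequenced in bulk in 20 libraries. The mice for young epidermis were 100 to 120 days of age, and were WT, K14cre;Wwoxfl/fl (WKO), K14cre;p53fl/fl (PKO) or K14cre;Wwoxfl/fl;p53fl/fl (DKO), with 3 libraries each. Old WT epidermis came from mice of at least 400 days (2 libraries). Cutaneous squamous cell carcinomas (cSCC) arose spontaneously in PKO and DKO mice of an age the labels do not give (3 libraries each). K14cre expresses Cre recombinase from the keratin 14 promoter, which is active in basal keratinocytes and hair follicles. A floxed gene is therefore deleted in keratinocytes and not in immune cells or fibroblasts. The labels do not say how WT mice came to carry tdTomato.

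The genes belong to different pathways. Gpld1 encodes a secreted phospholipase D that cuts the glycosylphosphatidylinositol (GPI) anchor and so frees proteins tethered to the cell surface. Itih5 encodes a secreted heavy chain of the inter-alpha-trypsin inhibitor family, whose members bind hyaluronan in the extracellular matrix. Ngef encodes ephexin-1, an exchange factor that acts downstream of ephrin receptors. Baiap2 encodes IRSp53, an I-BAR protein that bends the membrane and links Rac and Cdc42 to actin. Pim3 encodes a serine/threonine kinase of the PIM family, whose members promote cell survival and protein synthesis. Apol7a belongs to the mouse apolipoprotein L family.

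The genes share the choice, as higher than young WT in other epidermis groups. The bases just upstream of their transcription starts are shown for 3 of them: Baiap2 and Pim3, with the most GC-rich promoters of the 6, and Apol7a, with the least. Each run is the 250 bases before the start, on the coding strand, from RefSeq on build GRCm38.p6. Capitals mark matches, on either strand, to the GC box GGGCGG, the TATA box TATAAA, the CCAAT box CCAAT or the AP-1 site TGANTCA.
Baiap2, chr11:119942842-119943091, plus strand: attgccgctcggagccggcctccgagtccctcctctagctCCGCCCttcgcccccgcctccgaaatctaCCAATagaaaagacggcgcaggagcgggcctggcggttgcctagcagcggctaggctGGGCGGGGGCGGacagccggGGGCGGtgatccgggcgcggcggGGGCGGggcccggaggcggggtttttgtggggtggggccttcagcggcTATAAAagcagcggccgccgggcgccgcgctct
Pim3, chr15:88861944-88862193, plus strand: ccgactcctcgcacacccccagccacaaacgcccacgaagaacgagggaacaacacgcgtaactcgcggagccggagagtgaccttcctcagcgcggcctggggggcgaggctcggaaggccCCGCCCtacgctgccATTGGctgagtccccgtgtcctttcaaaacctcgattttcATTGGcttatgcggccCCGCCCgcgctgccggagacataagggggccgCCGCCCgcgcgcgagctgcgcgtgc
Apol7a, chr15:77399111-77399360, minus strand: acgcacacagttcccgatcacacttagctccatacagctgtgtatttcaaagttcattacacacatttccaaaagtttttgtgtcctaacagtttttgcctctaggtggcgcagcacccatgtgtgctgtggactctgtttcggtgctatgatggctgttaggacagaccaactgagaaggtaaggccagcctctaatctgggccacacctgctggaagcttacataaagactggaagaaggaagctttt

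The Baiap2 promoter held 5 GC boxes, a TATA box 33 bases before the start and 1 CCAAT box, at 72.8% G and C with 31 CpG dinucleotides. The Pim3 promoter held 3 GC boxes and 2 CCAAT boxes at 68% G and C. The Apol7a promoter held none of these motifs and was 46.8% G and C with 4 CpG dinucleotides. Of the others, Itih5 held 2 GC boxes, Ngef 1 and Gpld1 none. A GC box was found in 32.7% of the 32851 promoters in the table, a TATA box in 12.4%, a CCAAT box in 33.8% and an AP-1 site in 6.75%. The AP-1 letters were in 0 of the 6 promoters, and the median of all promoters was 52.4% G and C with 6 CpG dinucleotides.

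Total counts ranged from 11930153 to 17199262 per library. Levels below are counts scaled to library size after TMM scaling (trimmed mean of M-values), written CPM. A check of the targeted genes went against 2 labels. Wwox was at 7.34 CPM in the library labelled DKO young 3, against 0.926 and 0.944 CPM in the other DKO young libraries, and Trp53 was at 45.5 CPM in the library labelled DKO cSCC 3, against 2.74 and 2.86 CPM in the other DKO tumours. In the library labelled DKO young 3, Trp53 was at 21.1 CPM, beside 3.31 and 3.27 CPM in the others. Trp53 also fell less far in 2 of the PKO young libraries, with 21.8 CPM in the library labelled PKO young 2 and 19.2 CPM in the library labelled PKO young 3, where PKO young 1 was at 5.90 CPM and young WT held 30.7 to 40.1. The label of these 2 is thus borne out only in part, and the PKO differences from young WT are given with and without them. Summed fibroblast markers were 2353 and 1784 CPM in these 2, against 67.1 CPM in PKO young 1. They were 2671 CPM in the library labelled DKO young 3, against 26.3 and 6.97 CPM in the others. But WKO young 1 held 1549 CPM with Wwox at 1.29 CPM, and the library labelled DKO cSCC 3 held 416 CPM, against 736 and 815 CPM in the other DKO tumours. The part of undeleted cells in the kept transcripts was not tested.

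The cell makeup of the libraries differed as well, and its part in the differences from young WT was not tested beyond the values given here. Summed basal keratinocyte markers stood at 2022 to 3427 CPM in young WT and at 12497 to 21966 CPM in WKO and DKO young. They ranged from 3154 to 16624 CPM over the PKO young libraries, with 4279 and 12689 CPM in the old WT pair. The lowest PKO value, that of the library labelled PKO young 3, lay inside the young WT range. Summed markers of T, NK and dendritic epidermal T cells stood at 1980 to 2749 CPM in young WT, at 55.0 to 1075 in WKO, 96.8 to 354 in DKO, 304 to 3947 in PKO and 157 to 418 in old WT. Summed differentiated keratinocyte markers stood at 485 to 1087 CPM in young WT, 1102 to 12041 in PKO young and 7282 to 15590 in WKO and DKO young. Old WT held 3102 and 8769 CPM of them, so they were lowest in young WT with no overlap, by a narrow margin to PKO young. Summed erythrocyte markers stood at 829 to 3495 CPM in young WT and at 2.54 to 220 CPM in the other epidermis libraries. Summed melanocyte markers stood at 285 to 402 CPM and 4.43 to 116 CPM, so both were highest in young WT with no overlap. In bulk RNA, fewer cells of a type and less RNA per cell cannot be told apart.

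**Figure D1:**
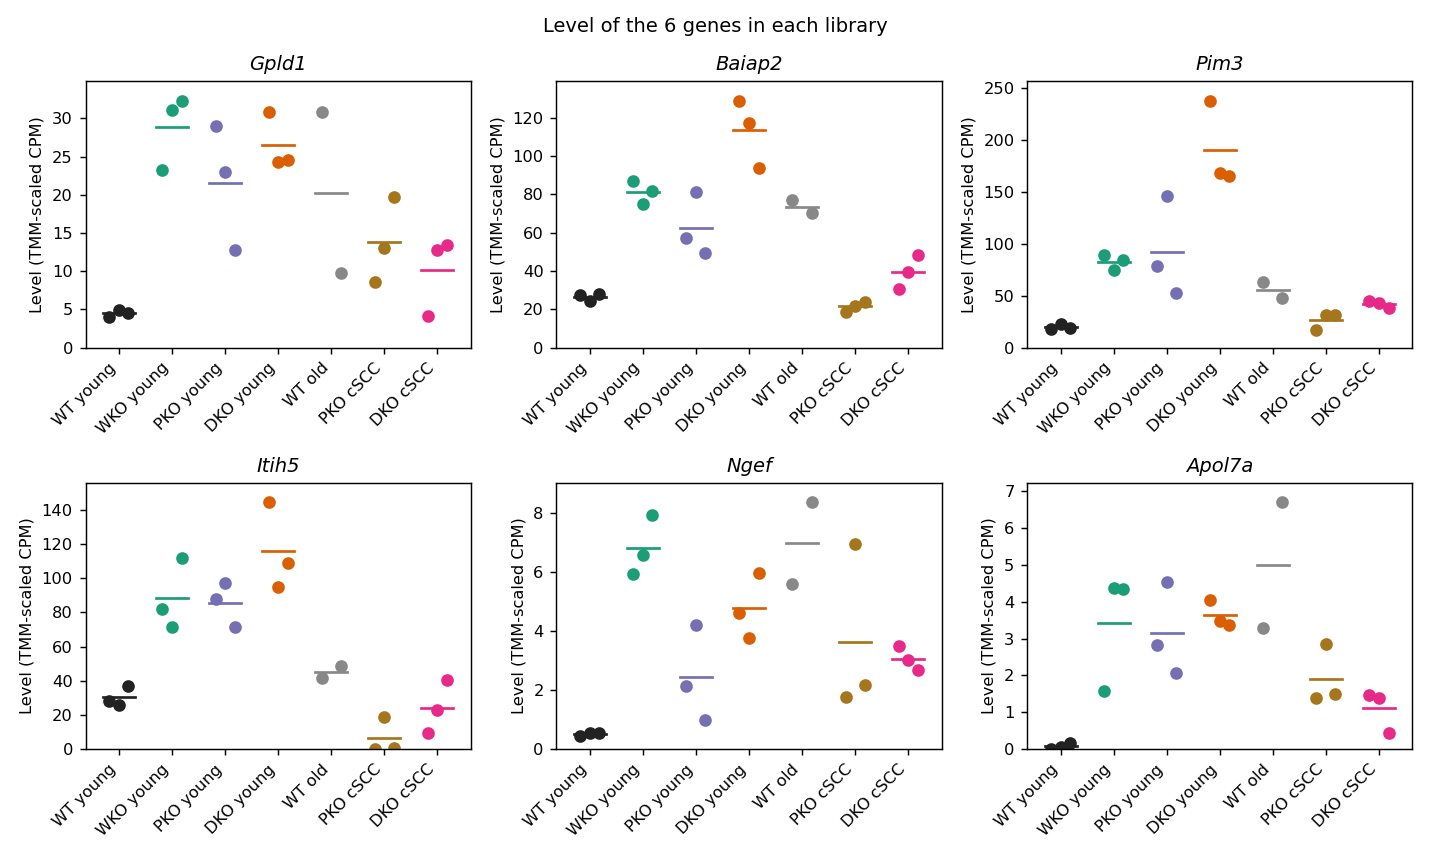
Level of each gene (TMM-scaled CPM, linear axis from 0) in every library, by group; points are libraries and lines are group means. Young WT lies below each young knockout and old WT library for all 6 genes, while 5 of 6 tumours fall to or below the highest young WT library for Itih5, and all 6 stay above young WT for Ngef and Apol7a.

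Gpld1 (ENSMUSG00000021340) was lowest in young WT, at 3.98, 4.97 and 4.57 CPM. WKO young libraries held 23.2, 31.1 and 32.3 CPM, and PKO young libraries 29.0, 23.0 and 12.8 CPM. DKO young libraries held 30.8 and 24.2 CPM, with 24.6 CPM in the library labelled DKO young 3. No young knockout library overlapped young WT. Old WT split, with 30.8 CPM in library 1 and 9.80 CPM in library 2. PKO tumours held 8.62, 13.0 and 19.8 CPM, and DKO tumours 4.15 and 12.8 CPM, with 13.4 CPM in the library labelled DKO cSCC 3. The lowest tumour thus lay within the young WT range and 5 of the 6 lay above it.

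Itih5 (ENSMUSG00000025780), the other secreted protein, was at 28.2, 25.7 and 36.8 CPM in young WT. WKO young libraries held 81.8, 71.6 and 112 CPM and PKO young libraries 87.7, 96.9 and 71.1 CPM. DKO young libraries held 144 and 95.02 CPM, with 109 CPM in the library labelled DKO young 3. Old WT, at 41.6 and 48.8 CPM, lay just above the highest young WT library and below every young knockout. The tumours held the lowest values of all: 0.365, 18.6 and 0.865 CPM in PKO cSCC, from 5, 321 and 15 counts. DKO tumours held 9.70 and 23.1 CPM, with 40.2 CPM in the library labelled DKO cSCC 3, the 1 tumour above the young WT range.

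Ngef (ENSMUSG00000026259) was at 0.437, 0.545 and 0.564 CPM in young WT, which rests on 8, 8 and 10 counts. It was at 5.92, 6.57 and 7.92 CPM in WKO young, at 5.58 and 8.36 CPM in old WT, and at 2.15, 4.20 and 1.005 CPM in PKO young. DKO young libraries held 4.63 and 3.77 CPM, with 5.96 CPM in the library labelled DKO young 3. PKO young was thus the young knockout nearest to young WT, and WKO young lay above PKO young with no overlap. The share of all genes with that order was not counted. Tumours held 1.75, 6.96 and 2.19 CPM in PKO cSCC and 3.48 and 3.02 CPM in DKO cSCC, with 2.68 CPM in the library labelled DKO cSCC 3. All 6 tumours lay above all young WT libraries.

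Baiap2 (ENSMUSG00000025372) was at 27.4, 24.4 and 27.8 CPM in young WT. It was at 86.7, 74.8 and 81.8 CPM in WKO young, 57.3, 81.1 and 49.6 CPM in PKO young and 76.9 and 70.3 CPM in old WT. DKO young libraries held the highest values, 129 and 117 CPM, with 94.0 CPM in the library labelled DKO young 3. DKO young lay above WKO and PKO young with no overlap, an order whose share over all genes was not counted. PKO tumours, at 18.8, 21.9 and 23.7 CPM, lay below every young WT library. DKO tumours, at 30.4 and 39.4 CPM with 48.6 CPM in the library labelled DKO cSCC 3, lay above every young WT library and below every other epidermis library.

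Pim3 (ENSMUSG00000035828) showed the same order at the top. It was at 18.1, 23.1 and 18.4 CPM in young WT, 89.4, 74.4 and 84.6 CPM in WKO young and 79.0, 146 and 52.5 CPM in PKO young. DKO young libraries held 238 and 168 CPM, with 166 CPM in the library labelled DKO young 3. These again lay above the other young knockouts with no overlap, and again no share over all genes was counted. Old WT held 62.7 and 47.3 CPM. PKO tumours held 16.6, 31.8 and 31.2 CPM, which overlaps young WT. DKO tumours held 44.4 and 42.5 CPM, with 38.0 CPM in the library labelled DKO cSCC 3, between young WT and old WT.

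Apol7a (ENSMUSG00000010601) was nearly absent from the young WT counts, with 0, 1 and 3 counts, or 0, 0.0681 and 0.169 CPM. WKO young libraries held 1.57, 4.38 and 4.35 CPM, PKO young 2.83, 4.54 and 2.06 CPM and old WT 3.28 and 6.69 CPM. DKO young libraries held 4.04 and 3.48 CPM, with 3.37 CPM in the library labelled DKO young 3. PKO tumours held 1.39, 2.84 and 1.499 CPM, and DKO tumours 1.48 and 1.39 CPM, with 0.446 CPM in the library labelled DKO cSCC 3. All 6 tumours lay above all young WT libraries, and each DKO tumour lay below each DKO young library. Of the 31-base words of the Apol7a transcripts, 25.2% also occur in other genes, chiefly Apol7c, Apol7b and Apol7e, so the estimation could have moved reads among these copies. Apol7e ran the other way, with 9.06 ± 2.26 CPM in young WT (SD, n = 3) and means of 0.615 CPM in WKO, 2.89 in PKO (0 to 8.42), 0.467 in DKO and 0.918 in old WT. Its fitted log2 differences from young WT were -3.88 in WKO and -4.30 in DKO (edgeR adjusted p = 0.0876 and 0.0644), so neither passed. The part of Apol7e in the young WT value of Apol7a was not tested.

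The name under which the 6 genes were grouped, low only in young WT, therefore did not hold across all 20 libraries. Among the 14 epidermis libraries young WT was lowest for all 6 genes, which the choice fixed in large part. For Itih5, old WT was low as well, at 41.6 and 48.8 CPM, below every young knockout library and not called higher than young WT. In Itih5, 5 of 6 tumours stood at or below the highest young WT library, and so did 3 of 6 in Baiap2 and 1 of 6 in each of Pim3 and Gpld1. For Baiap2, Pim3 and Itih5, all 6 tumours lay below all 9 young knockout libraries. How many of all genes show this order, or have all 6 tumours above young WT as Ngef and Apol7a did, was not counted. Nothing particular to these genes is therefore read from it. Shares of all genes by genotype are given below.

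Against young WT, the fitted log2 differences in WKO young were 2.67 (SE 0.29) for Gpld1, 1.54 (SE 0.23) for Itih5, 3.70 (SE 0.49) for Ngef, 1.60 (SE 0.19) for Baiap2, 2.05 (SE 0.33) for Pim3 and 5.30 (SE 0.77) for Apol7a. In PKO young the same differences ran from 1.24 (SE 0.19) for Baiap2 to 5.17 (SE 0.77) for Apol7a. In DKO young they ran from 1.93 (SE 0.24) for Itih5 to 5.38 (SE 0.77) for Apol7a, with 3.25 (SE 0.34) for Pim3. In old WT they ran from 0.59 (SE 0.24) for Itih5 to 5.85 (SE 0.80) for Apol7a. In no comparison was a member called lower, where 8.34%, 0%, 12.1% and 0.261% of all genes were in WKO, PKO, DKO and old WT. All 24 differences were positive, which the choice of the genes fixed in large part. The medians of the 6 genes were 2.36, 2.22, 2.87 and 1.84 in WKO, PKO, DKO and old WT, where the medians of all genes tested were -0.03, -0.01, -0.04 and 0.01. These comparisons share the young WT libraries.

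With edgeR's quasi-likelihood test and Benjamini-Hochberg adjustment at 0.05, all 6 genes were among those called higher in WKO young (13.1% of all genes tested) and in DKO young (15.8% of all genes tested). None was called in PKO young (0.00601%, 1 gene), and 5 were called in old WT (1.73%). Of all genes, 9.32% (1643 genes) were called in at least 2 of these comparisons, so the 6 are a small part of the genes that met the rule here. The choice rests on differences of this kind, and nothing is read from these calls. Nearest to the threshold, Pim3 in old WT lay just inside with an edgeR adjusted p of 0.0473, while in PKO young all 6 genes lay just outside at 0.0539 and Itih5 in old WT lay outside at 0.174. For Apol7a, whose young WT libraries held 4 counts together, the ratio of summed counts to young WT was 43.3 in WKO (95% exact interval 16.6 to 161), 37.0 in PKO (14.1 to 138), 46.5 in DKO (17.8 to 173) and 64.1 in old WT (24.4 to 239), where intervals cover counting error only. In a fit lacking the libraries labelled PKO young 2 and PKO young 3, added after seeing the data, the PKO differences were 2.72 for Gpld1, 1.15 for Baiap2, 2.03 for Pim3, 1.57 for Itih5, 2.08 for Ngef and 5.06 for Apol7a, each from PKO young 1 alone, which is assumed to vary like the other groups. Without the library labelled DKO young 3, the DKO differences were 2.61 for Gpld1, 2.21 for Baiap2, 3.35 for Pim3, 1.98 for Itih5, 3.01 for Ngef and 5.44 for Apol7a. The old WT difference of Gpld1 rested on the split between its 2 libraries, with 1.12 (SE 0.36) without old WT 1 and 2.79 (SE 0.34) without old WT 2.

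**Figure D2:**
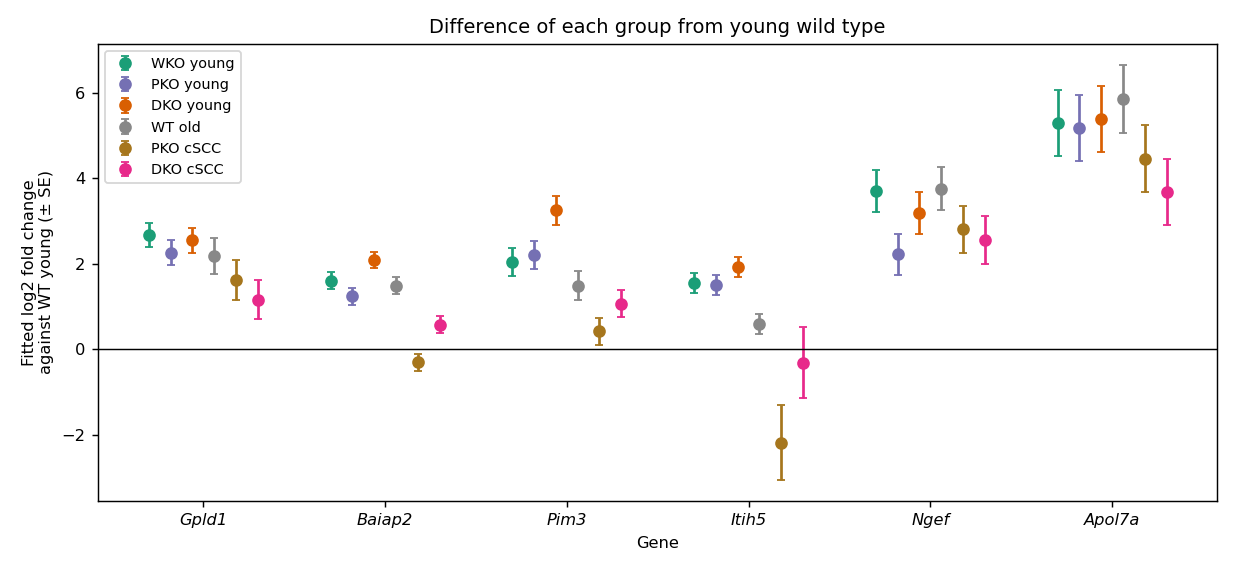
Fitted log2 fold change of each gene in 6 groups against young WT; bars are ± 1 SE. The epidermis groups lie above 0 for every gene, while PKO cSCC lies below 0 for Baiap2 and Itih5 and DKO cSCC lies below 0 for Itih5.

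Tumours stood below young epidermis of the same genotype for most of the genes. In PKO, the fitted log2 difference of cSCC from young epidermis was -1.55 (SE 0.21) for Baiap2, -1.80 (SE 0.32) for Pim3 and -3.68 (SE 0.93) for Itih5, with no overlap of libraries in these 3. Gpld1, at -0.64 (SE 0.45), Ngef, at 0.58 (SE 0.51), and Apol7a, at -0.71 (SE 0.62), overlapped. Of all genes, 12.3% were lower in PKO cSCC with no overlap. In DKO, the same difference was -1.40 (SE 0.46) for Gpld1, -1.52 (SE 0.20) for Baiap2, -2.19 (SE 0.32) for Pim3, -2.26 (SE 0.87) for Itih5, -0.64 (SE 0.51) for Ngef and -1.70 (SE 0.65) for Apol7a. All 6 genes were lower with no overlap there, where 16% of all genes were. The rule used the young side of both comparisons, so no p is given. Summed basal keratinocyte markers were at 9719 to 29755 CPM in PKO cSCC, which overlaps the 3154 to 16624 CPM of PKO young. They were at 16301 to 27566 CPM in DKO cSCC and 12497 to 14461 CPM in DKO young. Summed differentiated keratinocyte markers were at 162 to 1905 CPM in PKO cSCC and 602 to 14356 CPM in DKO cSCC, with the highest value in the library labelled DKO cSCC 3. The part of either marker sum in the tumour levels was not tested.

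Among the tumours, whose libraries did not enter the choice, the question was whether the added loss of Wwox goes with a difference in these genes. None of the 6 passed the test of DKO against PKO cSCC, in which edgeR called 1 of 16526 genes (0.00605%). Baiap2 was higher in DKO by a log2 difference of 0.81 (SE 0.24), from 21.4 ± 2.5 to 39.5 ± 9.1 CPM (SD, n = 3), with all 3 DKO tumours above all 3 PKO tumours, and its edgeR p was 0.00933 before and 0.608 after adjustment. It was the 1 of the 6 with an unadjusted p under 0.05, as were 8.1% of all genes. Pim3 was also higher without overlap, by 0.59 (SE 0.31, edgeR adjusted p = 0.642), and 7.46% of all genes were higher in DKO without overlap. Without the library labelled DKO cSCC 3 the differences were 0.66 (SE 0.24) for Baiap2 and 0.67 (SE 0.35) for Pim3, and the adjusted p of Baiap2 ranged from 0.0852 (DESeq2) to 0.968 over all alternatives run.

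The other 4 genes overlapped between the tumour groups. Itih5 differed by 1.77 (SE 1.24, edgeR adjusted p = 0.720), with an interval of ± 2 SE from -0.71 to 4.25, and by 5.20 (SE 0.76, adjusted p = 0.521) without PKO cSCC 2, the PKO tumour with most Itih5. Its adjusted p ranged from 0.288 to 0.988 over the alternatives run. Gpld1 differed by -0.53 (SE 0.60), Ngef by -0.32 (SE 0.60) and Apol7a by -0.83 (SE 0.66), with edgeR adjusted p of 0.832, 0.904 and 0.748. Ngef turned to 0.59 without PKO cSCC 2, which held the most Ngef of the tumours. The median of the 6 differences was 0.13, against -0.03 over all genes tested. In simulated data of this design (15922 genes) the test found 0%, 14.9% and 43.9% of genes changed by a log2 of 1, 2 and 3, so differences of the sizes seen here could seldom have been called.

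Whether the genes follow the share of keratinocytes was asked with Krt14, which encodes the keratin 14 of basal keratinocytes. Krt14 was at 387, 482 and 525 CPM in young WT, from 2216 to 5215 CPM in WKO and DKO young, at 4119, 3019 and 713 CPM among the PKO young libraries, at 1789 and 511 CPM in old WT and from 3770 to 13589 CPM in the tumours. Krt14 was thus low in young WT like the 6 genes. Its group means were highest in the tumours, at 7049 CPM in PKO cSCC and 9606 CPM in DKO cSCC, while single tumours overlapped the young knockouts. In the tumours Baiap2, Pim3 and Itih5 lay below every young knockout library, and Gpld1, Ngef and Apol7a overlapped them. Over all 20 libraries Pearson's r of log2 levels with Krt14 was 0.40 for Gpld1, 0.42 for Ngef, 0.29 for Apol7a, 0.21 for Pim3, 0.00 for Baiap2 and -0.31 for Itih5. These r are a description, since the low young WT values were part of the choice.

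Within the epidermis, 2 libraries had a Krt14 level close to that of young WT. Both belong to groups whose values chose the genes, so their levels are a description from which nothing is read about the share of keratinocytes. Old WT 2 held 1.10 times the young WT mean of Krt14, inside the young WT range, and its levels of the 6 genes were 2.17 times the young WT mean for Gpld1, 2.65 for Baiap2, 2.38 for Pim3, 1.61 for Itih5, 16.2 for Ngef and 84.5 for Apol7a. The library labelled PKO young 3 held 1.53 times the young WT mean of Krt14, above the highest young WT library, and 2.84 times for Gpld1, 1.87 for Baiap2, 2.64 for Pim3, 2.35 for Itih5, 1.95 for Ngef and 26.0 for Apol7a. Its summed T cell markers were 3947 CPM, above every young WT library, its summed basal keratinocyte markers lay inside the young WT range, and its summed differentiated keratinocyte markers were 1102 CPM, just above the young WT range. Old WT 2 held 418 CPM of the T cell markers and 3102 CPM of the differentiated keratinocyte markers.

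**Figure D3:**
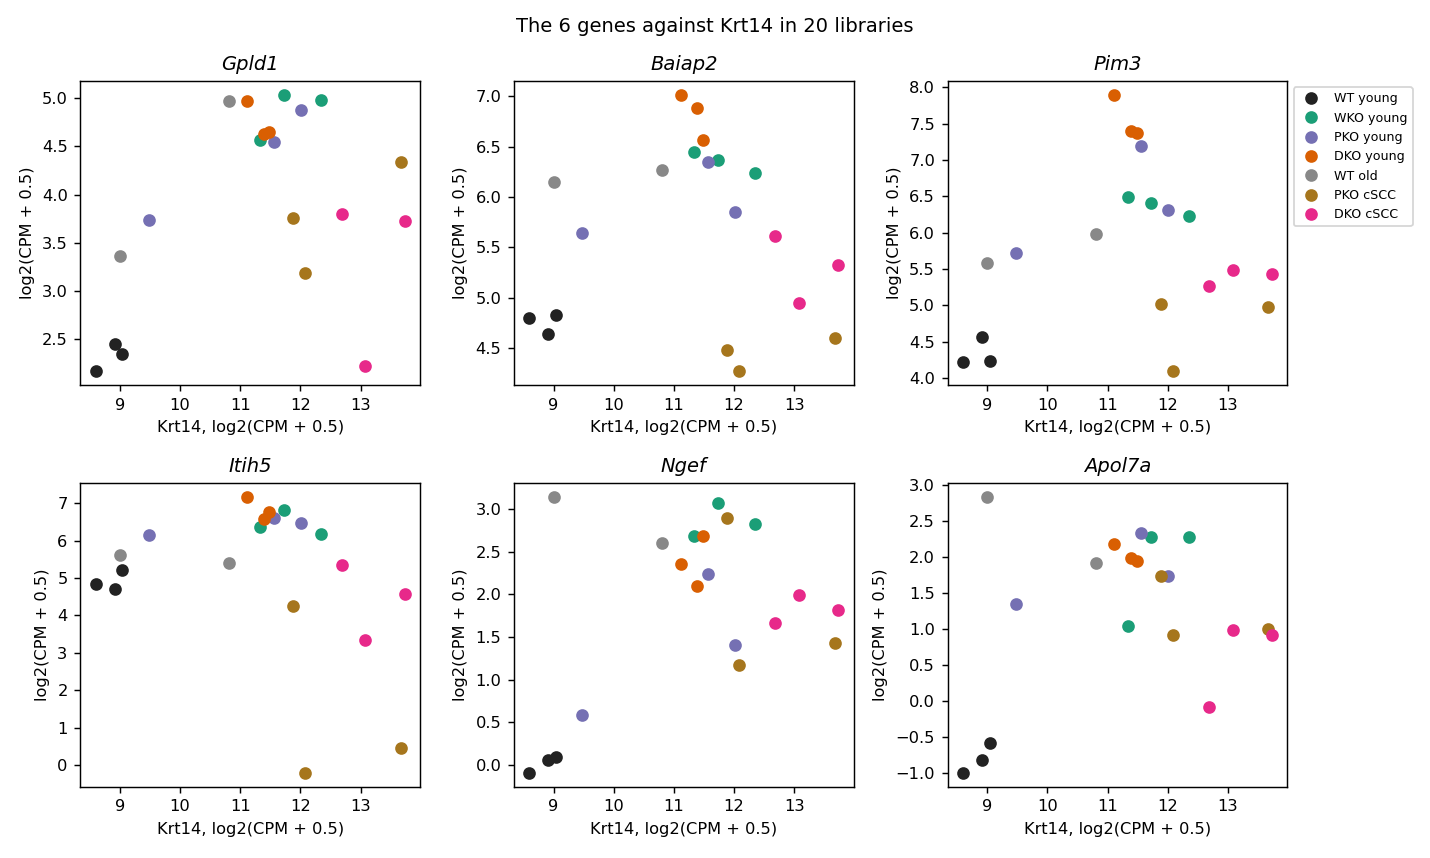
Level of each gene against that of Krt14, both as log2(CPM + 0.5), in 20 libraries coloured by group. The tumours lie toward the right, overlapping the young knockouts in Krt14, with Baiap2, Pim3 and Itih5 below every young knockout library.

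The slope of each gene on log2 Krt14 among libraries of the same group, fitted in all 20 libraries, does not use the group differences that chose the genes. The calls behind the choice did depend on the spread inside the epidermis groups, so the slopes are not fully apart from it. The size of that effect on the slopes was not tested. A slope of 1 means that a gene rises in proportion to Krt14. Krt5, the partner keratin of Krt14, had a slope of 0.92 (SE 0.11, edgeR adjusted p = 0.00122), and Col17a1, a hemidesmosome collagen of basal keratinocytes, 1.10 (SE 0.13, adjusted p = 0.00164). Not every listed marker followed Krt14: Itga6, an integrin of basal keratinocytes, had 0.57 (SE 0.16, adjusted p = 0.0604), and of the T cell genes Cd3e had -1.21 (SE 0.38, adjusted p = 0.0924) and Cd3g -1.12 (SE 0.43, adjusted p = 0.160), none passing. Apol7e had -2.19 (SE 0.43, adjusted p = 0.0204). None of the 6 genes passed, where 1.32% of genes tested were called positive and 2.09% negative. Gpld1 came nearest, with 0.50 (SE 0.15), an edgeR p of 0.00436 and an adjusted p of 0.0775. It passed without the library labelled DKO cSCC 3 (slope 0.57, edgeR adjusted p = 0.0310), and without DKO cSCC 1 (0.49), and its slope was 0.40 (adjusted p = 0.237) without old WT 2. Over all alternatives run its adjusted p ranged from 0.0215 (DESeq2) to 0.936 (the 6 tumours alone).

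The slopes of the others were 0.07 (SE 0.09) for Baiap2, 0.23 (SE 0.13) for Pim3, -0.41 (SE 0.40) for Itih5, 0.03 (SE 0.25) for Ngef and 0.10 (SE 0.28) for Apol7a, with edgeR adjusted p of 0.705, 0.341, 0.635, 0.970 and 0.914. The intervals of ± 2 SE ended at 0.25 for Baiap2, 0.49 for Pim3, 0.39 for Itih5, 0.52 for Ngef, 0.67 for Apol7a and 0.79 for Gpld1. All lay below the Krt5 slope of 0.92 in this fit of 20 libraries, which has its own SE of 0.11. The ends for Apol7a and Gpld1 lay above the Itga6 slope of 0.57 (SE 0.16), and no slope was tested against that of another gene. In the 12 young libraries alone, Ngef had 0.58 (SE 0.24, edgeR adjusted p = 0.237) and Apol7a 0.45 (SE 0.33, adjusted p = 0.526), with intervals of ± 2 SE that ended at 1.06 and 1.11, above the Krt5 slope of 0.99 there. The Pim3 slope fell to 0.070 without the library labelled PKO young 3. In a fit lacking the libraries labelled PKO young 2 and PKO young 3, added after seeing the data, Gpld1 had 0.53 (SE 0.21, adjusted p = 0.242), and Ngef and Apol7a turned to -0.34 (SE 0.25) and -0.07 (SE 0.40). The median slope of the 6 was 0.09, against -0.01 over all genes. In simulated data of this fit (17689 genes) slopes of 0.5, 1 and 1.5 were found for 13.4%, 61.2% and 81.8% of the changed genes.

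Other measures of cell makeup also gave no call among the 6 genes in the same fit, but the slopes differed between measures. On summed basal keratinocyte markers, Gpld1 had a slope of 0.51 (SE 0.17, edgeR adjusted p = 0.0826). On summed differentiated keratinocyte markers, a measure added after seeing the data, Gpld1 had 0.28 (SE 0.09, adjusted p = 0.186) and Baiap2 0.12 (SE 0.04, adjusted p = 0.153). Ngef had -0.07 (SE 0.13) and Apol7a -0.15 (SE 0.16) there. On summed T cell markers the slopes ran from -0.25 (SE 0.16) for Apol7a to 0.12 (SE 0.23) for Itih5. None of the 6 passed on any of these, where 5.60%, 1.15% and 3.18% of all genes did.

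**Figure D4:**
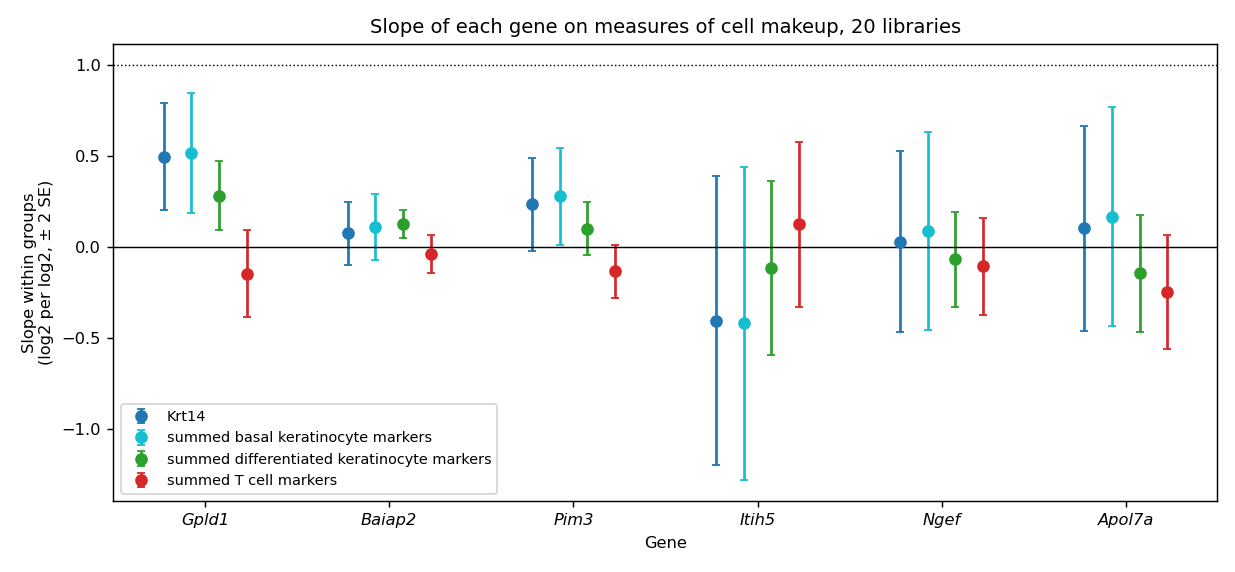
Slope of each gene among libraries of the same group on 4 measures of cell makeup (log2 per log2, 20 libraries); bars are ± 2 SE, and the dotted line marks proportion to the measure. Every interval ends below 1. The intervals of Gpld1 on Krt14, basal and differentiated markers, of Pim3 on basal markers and of Baiap2 on differentiated markers lie above 0, and none of these slopes passed the adjusted test.

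Correlations with Krt14 inside single sets of libraries were computed for 18 pairs of gene and set. Over the 6 tumours, Pearson's r ran from -0.35 for Ngef to 0.56 for Pim3 (exact permutation, smallest adjusted p = 0.621). Over the 9 young knockouts, Gpld1 had r = 0.87 and a Spearman rank correlation of 0.58 (exact permutation p = 0.0160 and 0.108, adjusted p = 0.167 and 0.389), and r fell to 0.23 without WKO young 2 and the library labelled PKO young 3, the libraries farthest from the median of Krt14. Ngef had r = 0.69 there (Spearman rank correlation 0.43, exact permutation p = 0.0637, adjusted p = 0.229), which turned to -0.39 without the same libraries. These 2 relations rest on those libraries, as the library labelled PKO young 3 was the young knockout with least Krt14 and with least Gpld1 and Ngef. Baiap2 turned from 0.27 to -0.91 without them. Over the 17 libraries other than young WT, r was -0.11 for Gpld1 and -0.20 for Ngef (permutation adjusted p = 0.818 and 0.779). It was -0.46 for Baiap2, -0.28 for Pim3, -0.47 for Itih5 and -0.57 for Apol7a (permutation adjusted p = 0.229, 0.621, 0.229 and 0.167). In these last genes tumours and young knockouts fell into separate or nearly separate clusters, so r mixes differences between groups with those inside them. Without the library labelled PKO young 3 and old WT 2, r ran from -0.52 for Ngef to -0.65 for Baiap2, with -0.55 for Gpld1.

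With Krt14 beside the group as a covariate, the differences from young WT were above 0 for all 6 genes in all 4 groups, and many were smaller. The choice of the genes fixed their sign in large part here too, so these are a description. In WKO they were 1.44 (SE 0.35) for Gpld1, 1.32 (SE 0.38) for Baiap2, 1.21 (SE 0.60) for Pim3, 1.29 (SE 0.46) for Itih5, 2.01 (SE 0.75) for Ngef and 3.95 (SE 1.17) for Apol7a. In PKO, Ngef was at 0.84 (SE 0.62). With differentiated keratinocyte markers as the covariate, added after seeing the data, Pim3 was at 0.57 (SE 0.25) in WKO and 0.37 (SE 0.21) in old WT, and Apol7a was at 4.16 (SE 1.18) and 5.39 (SE 1.002). No p is given for them.

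Relatives of the 6 genes, listed by protein family, showed whether families moved as a whole. In the tumour test none of the listed relatives of any family was called. Against young WT, several relatives of Ngef in the ephexin family rose. Of 5, 3 were called higher in WKO (13.1% of all genes), 0 in PKO (0.00601%), 4 in DKO (15.8%) and 2 in old WT (1.73%), with a median log2 difference of 1.40, 0.84, 1.63 and 1.69. Arhgef16, an exchange factor of this family, rose from 4.14 ± 2.60 CPM (SD, n = 3) in young WT to 27.1 ± 7.7 CPM (n = 3) in WKO, a log2 difference of 2.71 (SE 0.61, edgeR adjusted p = 0.0166), and to 27.0 ± 0.7 CPM (n = 2) in old WT (2.72, SE 0.61, adjusted p = 0.0471). Of 11 ephrin receptors, 6 were called higher in WKO and 7 in DKO, against 13.1% and 15.8% of all genes. None was in PKO or old WT, where 0.00601% and 1.73% of all genes were. Ephb4, a receptor of ephrin-B2, rose by 1.23 (SE 0.25, edgeR adjusted p = 0.0142) in WKO and by 1.12 (SE 0.25, adjusted p = 0.0124) in DKO.

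The other families were mixed. Baiap2l1, the I-BAR relative of Baiap2 also known as IRTKS, rose in WKO by 2.12 (SE 0.59, edgeR adjusted p = 0.0313) and in DKO by 2.48 (SE 0.59, adjusted p = 0.0151). It was the 1 of 3 tested I-BAR relatives called higher in each, where 13.1% and 15.8% of all genes were. Pim1, the founding member of the PIM kinases, rose in DKO by 1.67 (SE 0.54, edgeR adjusted p = 0.0415), and stood at 85.2 ± 61.9 CPM (SD, n = 3) in young WT, 52.7 ± 7.7 in WKO and 275 ± 74 in DKO. Pim2 had a slope of -1.01 (SE 0.25, edgeR adjusted p = 0.0408) on Krt14. None of 8 tested relatives of Apol7a was called higher in the young knockouts, where 13.1% and 15.8% of all genes were in WKO and DKO. Of these 8, 2 were called lower in WKO and 3 in DKO, where 8.34% and 12.1% of all genes were. Apol9a fell in WKO and DKO, with log2 differences of -2.74 (SE 0.81, edgeR adjusted p = 0.0389) and -2.85 (SE 0.82, adjusted p = 0.0286), and stood at 16.1 ± 1.3 CPM in young WT (SD, n = 3).

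Around Gpld1, 4 genes listed for GPI anchor release went both ways. In WKO 1 was called higher and 1 lower (13.1% and 8.34% of all genes), and in DKO 1 higher and 2 lower (15.8% and 12.1%). Gdpd2, a glycerophosphodiester phosphodiesterase family member, rose in WKO by 3.72 (SE 0.77, edgeR adjusted p = 0.0142), in DKO by 3.71 (SE 0.77, adjusted p = 0.00969) and in old WT by 3.94 (SE 0.87, adjusted p = 0.0459). Gdpd5, of the same family, fell in DKO by -2.40 (SE 0.58, edgeR adjusted p = 0.0155). Its slope on Krt14 was -0.78 (SE 0.14, adjusted p = 0.0167). Notum, which removes the lipid of Wnt proteins and was listed for its reported release of GPI-anchored proteins, fell in WKO (-4.38, SE 0.98, edgeR adjusted p = 0.0165) and in DKO (-5.53, SE 1.06, adjusted p = 0.00785). Of 20 genes that make or remodel the GPI anchor, 6 were called higher and 1 lower in WKO, where 13.1% and 8.34% of all genes were, and 2 higher and 1 lower in DKO, which is no more than the 15.8% and 12.1% of all genes. Around Itih5, Hyal1, a hyaluronidase, rose in WKO by 1.58 (SE 0.43, edgeR adjusted p = 0.0296) and in DKO by 2.25 (SE 0.44, adjusted p = 0.00803). Cd44, the hyaluronan receptor, fell in old WT (-1.76, SE 0.31, edgeR adjusted p = 0.0330). Of 9 partners of IRSp53, 3 were called lower in WKO (8.34% of all genes) and 1 in DKO, near the 12.1% of all genes, and none higher. These comparisons use the same young WT libraries as the choice of the 6 genes, and nothing particular to a family is read from these counts.

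Genes whose pattern was most like the mean of the 6 were ranked by Pearson's r over 20 libraries among 10285 genes, as a description in which libraries share group and cell makeup. Smagp, a small transmembrane glycoprotein of epithelial cells, had r = 0.95, Epn2, an endocytic adaptor, 0.95, Tmem184a 0.94, Cx3cl1, the chemokine fractalkine, 0.93, and Pigg, which modifies the GPI anchor, 0.93. Ppp2r3a, Prkag2, Itm2b, Hsdl2 and Slc35f5 followed at 0.92 to 0.93. Smagp stood at 5.12 ± 1.80 CPM in young WT (SD, n = 3), 28.8 ± 2.6 in WKO, 42.8 ± 12.5 in DKO, 6.61 ± 3.68 in PKO cSCC and 11.7 ± 3.8 in DKO cSCC, so its means in the tumours lay between those of young WT and the young knockouts named. Krt14 ranked 3869 with r = 0.20, Krt5 3099 with r = 0.32 and the T cell gene Cd3e 5016 with r = 0.02. Singly, Gpld1 was most like Dolpp1, Sdr42e1 and Tmem45a (r = 0.92 to 0.93), and Baiap2 was most like Atp10b, Sptlc3 and Skint5 (r = 0.95 to 0.96). Pim3 was most like Cldn4, a claudin of tight junctions, with Pard6b and Itpkc (r = 0.95), and Itih5 most like Tfap2b, Snapc5 and Mfsd6 (r = 0.93 to 0.95). Ngef was most like Rhbdf1, Eps8l2 and Stap2 (r = 0.89 to 0.90), and Apol7a most like Gstt3, Stap2 and Me1 (r = 0.85 to 0.87).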

How the data were processed

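The deposited table gives the authors' estimated counts, whole numbers as deposited, for 51123 gene identifiers in 20 libraries, and 48246 of them matched a symbol in the annotation used here for names. Per the submitters' processing notes, tools were Salmon 0.13.1, Trim Galore 0.4.1, DESeq2 1.28.1 and FastQC 0.11.5, and the build was mm39. The annotation release, and whether molecular identifiers were used in counting, are not given in the sources used here. RNA input was 5 ng of RNA and the kit was stranded, per the labels' protocols. Gpld1 overlaps Mrs2, and Ngef overlaps Neu2, on the opposite strand, and the strand setting of the counting is not given.

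Tests used edgeR 4.0.16 in R 4.3.3, with TMM scaling, filterByExpr and the quasi-likelihood test, adjusted by Benjamini-Hochberg over all genes tested, at 0.05. Young comparisons used 12 libraries (16627 genes), old WT 14 (17622), tumours 8 (6 cSCC and 2 old WT, 16526) and the Krt14 slope all 20 (18163 genes beside Krt14), with group in the design. Correlations used log2(CPM + 0.5) with exact permutation, or 100000 resamples for 17 libraries, 2-sided. SE is the fitted difference divided by the square root of F. The fits were tested on simulated data. The labels call samples of a group biological replicates. No 2 libraries agreed within sampling noise, and replicate numbers did not pair the samples (median r of same-numbered libraries -0.06 over 57 pairs).

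The members, the family and marker lists and the tests were chosen with earlier results of these data known. Named beside the members were targeted genes, keratins, up to 4 relatives of a family with the highest mean CPM, and the genes most like the members by r, with at least 5 CPM. Family members called in a test were also counted, and single ones were named after their values were seen. Alternatives were other scalings, filters, DESeq2 1.42.0, limma 3.58.1 voom, other library sets, a replicate block, other makeup measures and each library left out.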

Additional observations from a re-analysis of the deposited data

How the results depend on the processing

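No member was called in the tumour test under any alternative run. The count of all genes called there, 1 as reported, was 375 with no low-count filter, 200 with DESeq2, 0 with voom, 3 in a fit of the 6 tumours, 2 in a fit of all 20 libraries and 0 to 3 with each library left out. With the replicate number as a block it was 2, and the numbers do not pair the samples (r of same-numbered tumours 0.02, -0.18 and -0.13). The Ngef tumour difference turned to 0.18 with voom and ranged from -0.60 to 0.59 with each library left out.

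For the Krt14 slope, 0 members were called as reported and 1, Gpld1, with DESeq2, with voom, without the libraries labelled DKO young 3 and DKO cSCC 3, and in the 14 epidermis libraries (added after seeing the data), and 0 to 1 with each library left out (1 without DKO cSCC 1 or the library labelled DKO cSCC 3). All genes called, 619 as reported, were 2139 with DESeq2, 946 with voom, 189 with the replicate block, 976 with Krt5 in place of Krt14, 1017 with basal and 208 with differentiated keratinocyte markers, 90 in the 12 young libraries, 142 in the 17 other than young WT, 943 without those libraries, 34 without the libraries labelled PKO young 2 and 3 and 0 in the 6 tumours (both added after seeing the data), and 3 (without the library labelled PKO young 3) to 790 with each library left out, 58 and 57 without old WT 1 and 2. The list of slope calls over all genes thus rests on the library labelled PKO young 3 and the old WT pair.

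Slopes turned for Ngef to -0.018 on Krt5, -0.0064 without the libraries labelled DKO young 3 and DKO cSCC 3, -0.34 without the libraries labelled PKO young 2 and 3, -0.070 on differentiated markers and -0.50 in the tumours, for Apol7a to -0.15 on differentiated markers, -0.066 without the libraries labelled PKO young 2 and 3 and -0.057 in the tumours, and for Itih5 to 0.088 in the 12 young and 0.026 in the 14 epidermis libraries. On T cell markers they were -0.15 (Gpld1), -0.039 (Baiap2), -0.13 (Pim3), 0.12 (Itih5), -0.11 (Ngef) and -0.25 (Apol7a). With each library left out they ranged from -0.37 to 0.26 for Ngef, -0.84 to 0.027 for Itih5, -0.096 to 0.28 for Apol7a, 0.070 (without the library labelled PKO young 3) to 0.31 for Pim3 and -0.017 to 0.11 for Baiap2. Correlations with Krt14 turned in the tumours for Itih5 (-0.0020 with a pseudocount of 2 and -0.066 by total counts), Ngef (0.38) and Apol7a (0.26) without the 2 farthest libraries. In the young knockouts they turned to -0.91 (Baiap2), -0.74 (Pim3), -0.46 (Itih5) and -0.39 (Ngef) without those, and by total counts to -0.13 (Pim3) and -0.096 (Itih5). For these turns the cause was not tested. Differences from young WT kept their sign in every alternative run, 204 within and 60 beyond the spread between replicates. The choice of the genes fixed that sign in large part, so nothing is read from its being kept. Ngef and Apol7a rest on few counts, which limits their precision.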
